A study of Mus musculus with 16 samples.

Results

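Histone marks were read at 10 genes that encode transcription factors of the hair follicle bulge, the niche of the hair follicle stem cells: Sox9, Lhx2, Nfatc1, Tcf7l1, Tcf7l2, Runx1, Gata3, Tbx1, Trp63 and Vdr. The genes were chosen by name, as factors known for work in these stem cells or their epithelium, by a rule that uses no measured value. Earlier results of these data were known when the choice was made, so it was not blind to them. They are 10 of the 22367 protein-coding genes of the mouse genome build mm9, and all 10 were found in its annotation. The data are peak lists from ChIP-seq, in which an antibody pulls down the nucleosomes that carry a histone mark and sequencing shows where in the genome they came from. Lists were read for H3K4me3, H3K27me3 and H3K9me3 in cells sorted from the skin of wild-type mice, labelled as male, of mixed CD1 and FVB background. EA-HFSCs were CD34+/α6-integrin+ cells of early anagen, from postnatal day (PD) 22 to 25, and LC-HFSCs were cells with the same surface markers at late catagen, from PD38 to PD44. The CD34-/α6-integrin+ cells of the same 2 stages gave the non-EA-HFSCs at early anagen and the non-LC-HFSCs at late catagen. These non-HFSCs are defined only by a missing and a present surface protein, and the study describes them as mainly cells of the epidermis and of the lower outer root sheath. Each population was collected as pools of many mice, and the reads of independent pools were combined before peaks were called, so that there is 1 list for each of 4 populations and 3 marks, 12 lists in all. No value has a replicate, no test between populations was possible, and each comparison is a description of these lists.

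In the bulge, Sox9 and Lhx2 hold the stem cell state, Nfatc1 and Tbx1 are linked to the cells' quiescence and self-renewal, and Tcf7l1 and Tcf7l2 are the DNA-binding partners through which Wnt signals reach their targets. Runx1 drives the entry of the stem cells into anagen, Gata3 directs the inner root sheath lineage and the epidermal barrier, Trp63 is the master factor of all stratified epithelia, and the vitamin D receptor Vdr is needed for the follicle to cycle at all. H3K4me3 marks starts that are active or ready for use, and it spreads into broad domains at genes that define a cell's identity. H3K27me3 is laid down by Polycomb proteins over developmental genes that are kept silent, a start with both marks is called bivalent, and H3K9me3 is the mark of heterochromatin.

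A gene was said to carry a mark when a peak lay within 3000 bp of any of its annotated transcript starts. The lists differed widely in length: they held 14718 to 24498 peaks of H3K4me3, 1909 to 25534 of H3K27me3 and 1414 to 42277 of H3K9me3, with the LC-HFSC list the shortest for every mark. The H3K27me3 list of EA-HFSCs, with 25534 peaks, was longer than that of non-EA-HFSCs, with 17488. The sort could be checked on its own antigen. Cd34 carried H3K4me3 in both HFSC lists and in neither non-HFSC list, and it carried H3K27me3 in both non-HFSC lists and in neither HFSC list. Krt5, Krt14 and Itga6, which mark basal epithelium, and Krt15 and Lgr5 carried H3K4me3 in all 4 lists. Of 27 marker genes for bulge, epidermis and other cells of the skin, 17 carried H3K4me3 in EA-HFSCs, 16 in LC-HFSCs, 17 in non-EA-HFSCs and 14 in non-LC-HFSCs. The blood cell markers Ptprc, Cd3e and Itgam had no H3K4me3 at a start in any list, and of the endothelial markers Pecam1 and Cdh5 had none while Kdr carried it in all 4. Of 4 melanocyte genes Mitf and Pmel carried it in all 4 lists, Dct in all but non-LC-HFSCs and Tyr in none. Of 3 fibroblast genes Pdgfra and Col1a1 carried it in all 4 and Col1a2 in all but non-LC-HFSCs, and the part of other cell types in the values at the 10 genes was not tested.

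All 10 genes carried H3K4me3 at a start in EA-HFSCs, where 62.4% of all protein-coding genes did. The count was 10 of 10 also in LC-HFSCs against 55.9% of all genes, in non-EA-HFSCs against 61.7% and in non-LC-HFSCs against 58.8%. The mark was present in all 4 lists at once for the 10 genes and for 54.9% of all genes. Counting error on these background shares, as 95% Wilson intervals, was at most 0.655 percentage points to either side. The presence of H3K4me3 therefore did not separate the stem cells from the other cells, and neither did it separate early anagen from late catagen. The H3K27me3 lists divided the genes.

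H3K27me3 lay at a start of 1 of the 10 genes, Gata3, in EA-HFSCs, against 14% of all genes, and of the same gene alone in LC-HFSCs, against 3.73%. In non-EA-HFSCs it lay at 5 genes, Sox9, Lhx2, Runx1, Gata3 and Tbx1, against 16.8% of all genes. In non-LC-HFSCs it lay at these 5 and at Tcf7l1, 6 in all, against 12.9%. Sox9, Lhx2, Runx1 and Tbx1 thus carried the mark in both non-HFSC lists and in neither HFSC list, 4 of 10 genes, where 2.22% of all genes showed this pattern. The comparison of the early anagen lists alone gave 4 genes with H3K27me3 in non-EA-HFSCs and not in EA-HFSCs, against 5.36% of all genes, and 0 with the reverse, against 2.58%. Among the 2678 genes with H3K27me3 at a start in both non-HFSC lists, 2170 or 81% (95% Wilson interval 79.5% to 82.5%) also had it in EA-HFSCs, while 1 of the 5 factors did. Nfatc1, Tcf7l2, Trp63 and Vdr carried no H3K27me3 at a start in any list. The 1909 top-scoring H3K27me3 peaks of each list were also read, so that all 4 had the same number. The counts were then 1 in each HFSC list, 3 in non-EA-HFSCs and 4 in non-LC-HFSCs. Lhx2, Gata3 and Tbx1 were in both non-HFSC lists, Sox9 in that of non-LC-HFSCs alone and Runx1 in neither. The share of all genes was not counted at this cut. The peak of Gata3 in LC-HFSCs was weak, with a score of 51.3, and was lost when peaks under a score of 100 were left out. At that cut Sox9 was also lost from non-EA-HFSCs, where its peak scored 69.7. The widest Lhx2 peak of that list scored 97.3 and was lost too, but another peak at the Lhx2 starts stayed. Lhx2, Runx1 and Tbx1 thus kept the mark in both non-HFSC lists. The score is MACS's measure of a peak's p-value on a negative log10 scale, multiplied by 10.

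**Figure D1:**
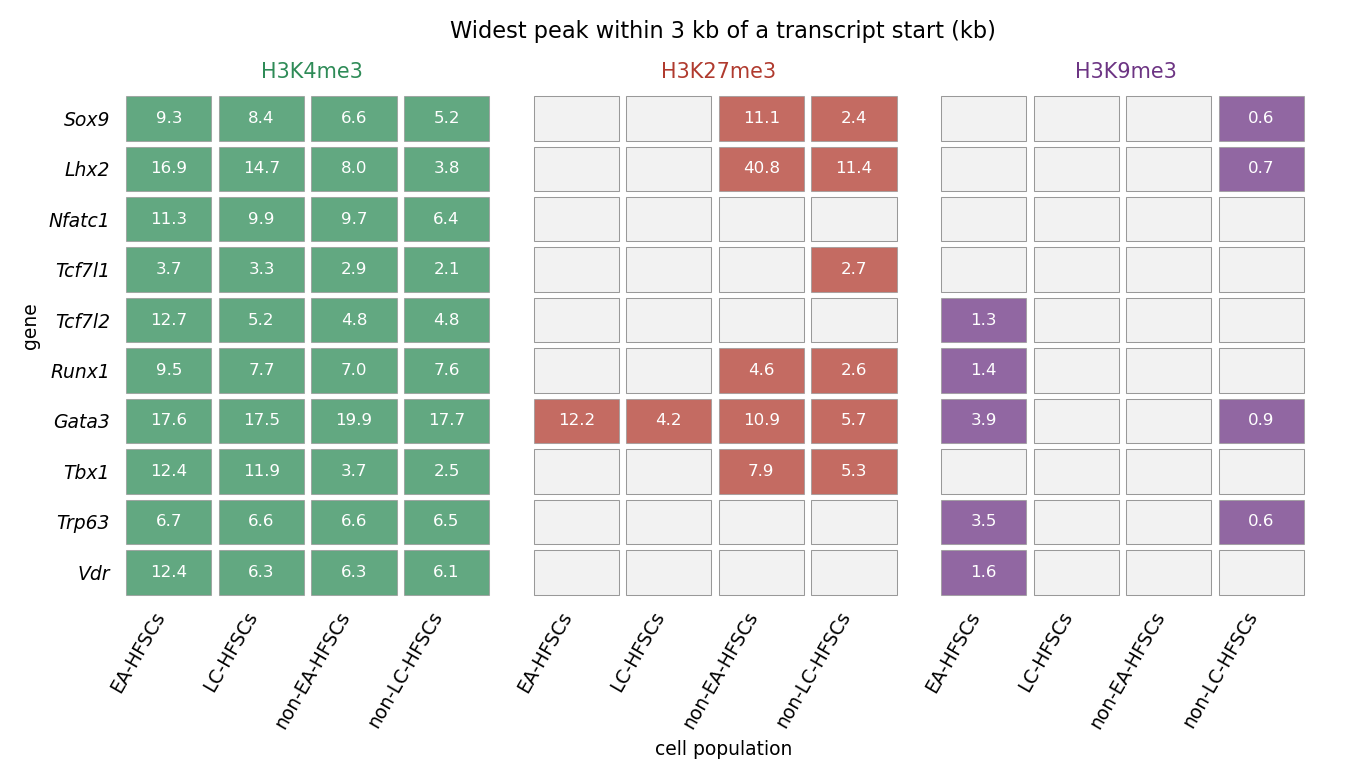
Width in kb of the widest peak within 3 kb of a transcript start for each of the 10 genes (rows) in the 12 lists (columns), by mark; an empty box means that no peak lay there. The H3K4me3 block is full, whereas the H3K27me3 block is empty in the 2 HFSC columns except for Gata3.

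The pairing of H3K4me3 and H3K27me3 at the starts of a gene followed the same line. It was found for 1 gene in EA-HFSCs (8.89% of all genes), 1 in LC-HFSCs (1.3%), 5 in non-EA-HFSCs (10.8%) and 6 in non-LC-HFSCs (6.6%). At the paired genes other than Gata3, the marks shared most of the bases under the H3K4me3 peaks at the starts. In non-EA-HFSCs, H3K27me3 peaks lay over 100% of the bases under the H3K4me3 peaks at the starts of Sox9 and Tbx1, over 99.4% at Lhx2 and over 62.1% at Runx1. In non-LC-HFSCs the shares were 68.1% at Sox9, 98.1% at Tbx1, 86.1% at Lhx2, 51.7% at Runx1 and 66.4% at Tcf7l1. At Gata3 the shares were lower, 6.74% in non-EA-HFSCs and 8.96% in non-LC-HFSCs. The HFSC lists, where Gata3 was the only paired gene, gave 9.92% at early anagen and 6.3% at late catagen. Sorted populations are mixtures, so that both marks on the same nucleosomes, each mark in different cells, and a mark in few cells or weakly in many cannot be told apart here.

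Over the genes and 50 kb to either side, H3K27me3 peaks covered 25539 bp of the 10 regions in EA-HFSCs (1.26% of their length) and 11069 bp in LC-HFSCs (0.546%). They covered 310973 bp in non-EA-HFSCs (15.3%) and 186306 bp in non-LC-HFSCs (9.2%). The whole H3K27me3 lists covered 58.2, 7.41, 68.3 and 35.9 Mb in the same order, so that the lists of EA-HFSCs and non-EA-HFSCs were much closer to each other over the genome than over these genes. Lhx2 had the most in the non-HFSC lists, with 1.35 kb in EA-HFSCs, 0 in LC-HFSCs, 95.3 kb in non-EA-HFSCs and 66.7 kb in non-LC-HFSCs. At Tcf7l1 the lengths were 1.01, 3.48, 68.8 and 50.1 kb, at Tbx1 0, 0, 54.9 and 23.7 kb, and at Runx1 6.43, 0, 40.1 and 16.3 kb. Gata3 was the only gene of the 10 with a longer covered stretch in EA-HFSCs (16.7 kb) than in non-EA-HFSCs (14.8 kb), and it had 7.59 kb in LC-HFSCs and 9.61 kb in non-LC-HFSCs. The regions of Nfatc1, Tcf7l2, Trp63 and Vdr held no H3K27me3 peak in any list.

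**Figure D2:**
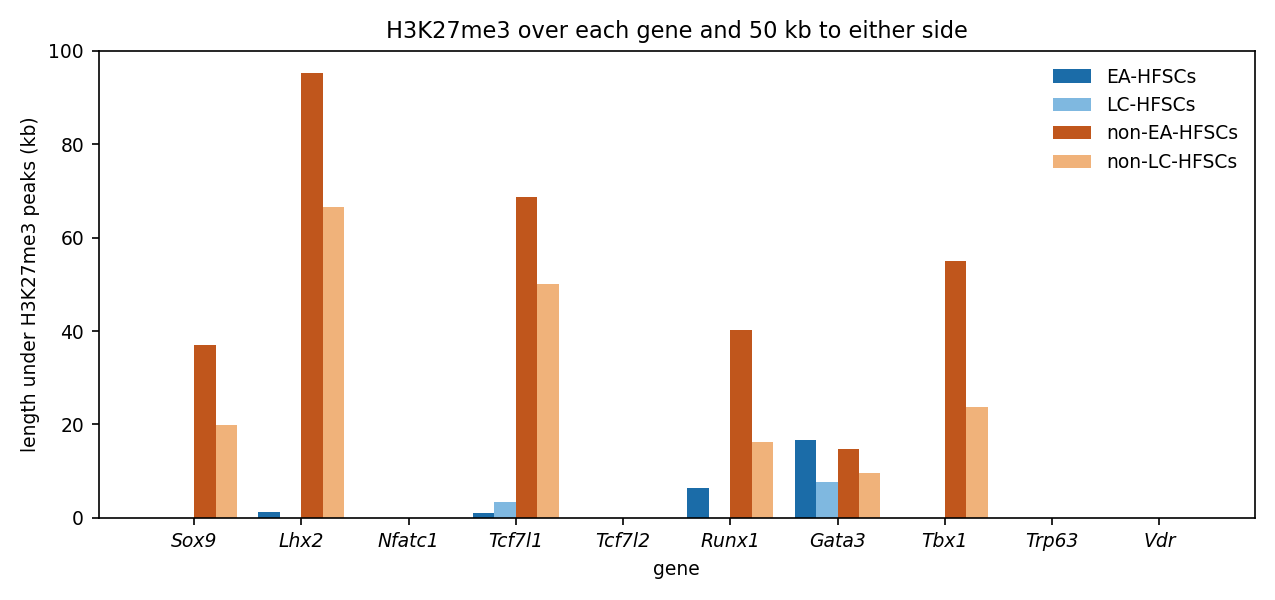
Length in kb under H3K27me3 peaks over each gene and its 50 kb flanks, with 1 bar for each population and no replicates. For Sox9, Lhx2, Tcf7l1, Runx1 and Tbx1 the bars of both non-HFSC lists stand above those of both HFSC lists, Gata3 has bars in all 4, and the other genes have none.

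The width of H3K4me3 differed where its presence did not. Among all genes with the mark at a start, the widest peak at a start had a median width of 3123 bp in EA-HFSCs, 2588 bp in LC-HFSCs, 2571 bp in non-EA-HFSCs and 2320 bp in non-LC-HFSCs. The medians of the 10 factors were 11828, 8054, 6554 and 5642 bp. Their widest peak exceeded the 90th percentile of all such genes for 9 of 10 genes in each HFSC list and for 8 of 10 in each non-HFSC list. Tcf7l1 was below it in all 4 lists, and Tbx1 was below it in the non-HFSC lists.

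Tbx1, a T-box factor, and Lhx2, a LIM-homeodomain factor, showed the widest gap in bp between stem cells and other cells at both stages. As a ratio of non-EA-HFSCs to EA-HFSCs, Tcf7l2 (0.381) lay between Tbx1 (0.296) and Lhx2 (0.47). The Tbx1 peak was 12377 bp wide in EA-HFSCs and nearly as wide, 11939 bp, in LC-HFSCs, and the widest of the separate peaks there was 3668 bp in non-EA-HFSCs and 2516 bp in non-LC-HFSCs. With peaks less than 1 kb apart merged, Tbx1 measured 11142 bp in non-EA-HFSCs and 4032 bp in non-LC-HFSCs, so that its gap at early anagen rests on short breaks in the mark. For Lhx2 the widths were 16949, 14732, 7965 and 3840 bp, the last of which merging raised to 7383 bp. Sox9 followed with 9290, 8369, 6551 and 5203 bp, and Nfatc1 with 11278, 9936, 9690 and 6417 bp. Tcf7l1 was the narrowest, with 3698, 3323, 2905 and 2114 bp. The order EA-HFSCs, LC-HFSCs, non-EA-HFSCs, non-LC-HFSCs from widest to narrowest held for 7 of the 10 genes, all but Runx1, Gata3 and Vdr, and it is also the order of the medians over all genes. Tcf7l2 and Vdr stood out by the gap between EA-HFSCs and the other 3 lists, though their peaks exceeded the 90th percentile in all 4. Tcf7l2 measured 12652 bp there and 5164 bp in LC-HFSCs, 4826 bp in non-EA-HFSCs and 4759 bp in non-LC-HFSCs. Vdr measured 12424 bp in EA-HFSCs and 6273, 6327 and 6081 bp in the others. Trp63 hardly varied, with 6743, 6616, 6556 and 6465 bp, though in non-EA-HFSCs merging with the peaks next to it gave 12925 bp. Runx1 measured 9524, 7740, 7015 and 7634 bp, and Gata3 17612, 17482, 19868 and 17683 bp. The Gata3 peak ranked 1 among 13797 genes in non-EA-HFSCs and 1 among 13145 in non-LC-HFSCs.

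Widths fell from EA-HFSCs to LC-HFSCs at all 10 genes, with a median ratio of 0.89, a lowest ratio of 0.408 at Tcf7l2 and a highest of 0.993 at Gata3. The same held for 89.5% of all genes, whose median ratio was 0.823, so that the fall was not particular to the 10 genes. From EA-HFSCs to non-EA-HFSCs the median ratio was 0.721 for the 10 genes and 0.84 for all genes, and it ran from 0.296 at Tbx1 to 1.13 at Gata3. From LC-HFSCs to non-LC-HFSCs it was 0.784 against 0.923, and from non-EA-HFSCs to non-LC-HFSCs 0.842 against 0.89. The widths depend on the depth and background of each library, which the lists do not give, and their part in these ratios was not tested.

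**Figure D3:**
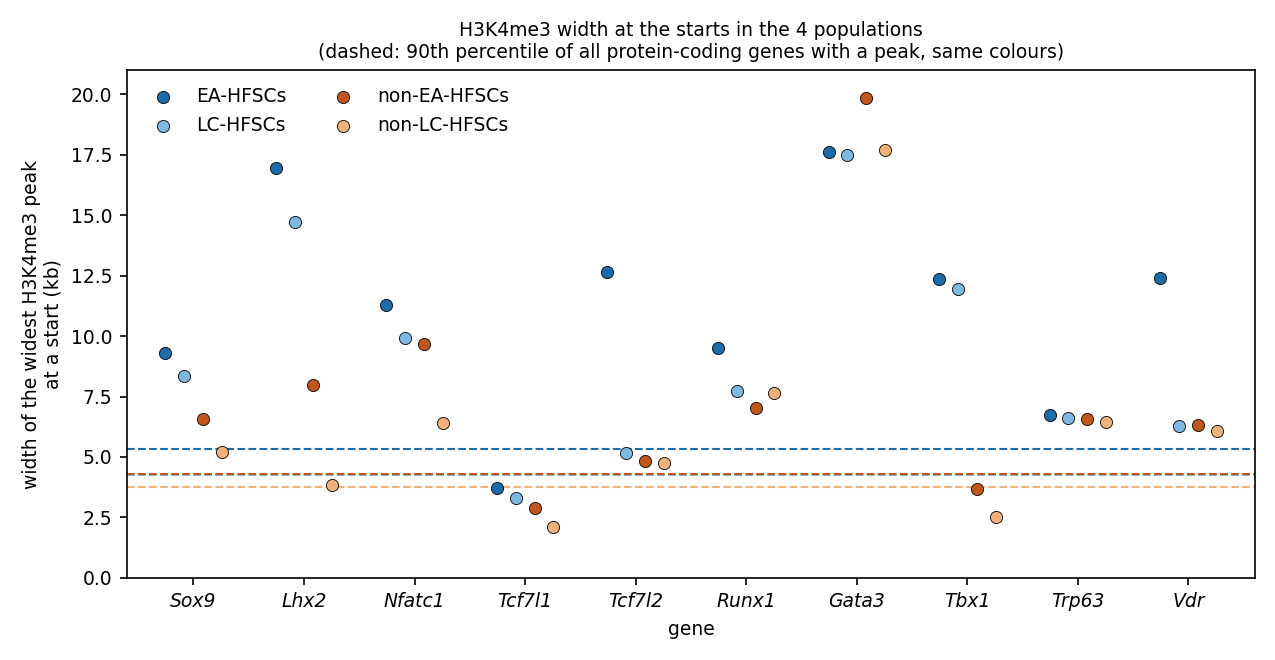
Width in kb of the widest H3K4me3 peak at a start of each gene, 1 point for each population with no replicates, and the 90th percentile over all genes with a peak in that population as a dashed line. Lhx2 and Tbx1 separate the HFSC lists from the non-HFSC lists, the EA-HFSC points of Tcf7l2 and Vdr lie above their other 3 points, which are still over the line, and the 4 points of Trp63 lie together.

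Sox9 lies at chr11:112643538-112649074 on the plus strand, and its 2 transcripts start within 3 kb of each other. In both HFSC lists 1 H3K4me3 peak covered 100% of the gene, from 2866 bp before the first start to 6423 bp after it in EA-HFSCs and from 2399 bp before to 5969 bp after in LC-HFSCs. In non-EA-HFSCs an H3K27me3 peak of 11062 bp, from 4189 bp before the start to 6872 bp after it, enclosed the whole H3K4me3 peak. In non-LC-HFSCs the same stretch held 5 shorter H3K27me3 peaks of at most 2358 bp. Summed over the region, H3K27me3 covered 37014 bp in non-EA-HFSCs, 19967 bp in non-LC-HFSCs and 0 bp in EA-HFSCs and LC-HFSCs. The sequence around the first start, chr11:112643288-112643587 on the plus strand, is shown because it lay wholly under H3K4me3 in all 4 lists and under H3K27me3 in non-EA-HFSCs alone. In non-LC-HFSCs it fell in a gap between H3K27me3 peaks. It and the other sequences shown were read 5′ to 3′ from the mm9 genome, each with 250 bases before the start and 50 from the start on, and capitals mark every CpG dinucleotide, the base pair step at which DNA is methylated and around which many mammalian starts are built.
Sox9 start: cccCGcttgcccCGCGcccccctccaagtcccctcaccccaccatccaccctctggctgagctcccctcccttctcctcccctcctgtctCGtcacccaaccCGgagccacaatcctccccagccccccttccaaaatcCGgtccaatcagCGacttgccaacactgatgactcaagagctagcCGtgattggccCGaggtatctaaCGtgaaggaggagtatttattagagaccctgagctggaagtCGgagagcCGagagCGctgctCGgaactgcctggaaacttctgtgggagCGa

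Lhx2 lies at chr2:38194801-38225253 on the plus strand and has an upstream group of starts and a second group 12027 bp further along. The second group carried H3K4me3 in all 4 lists. The upstream group carried it in EA-HFSCs (6162 bp), LC-HFSCs (3429 bp) and non-EA-HFSCs (2351 bp) and not in non-LC-HFSCs. H3K4me3 covered 71.9% of the gene in EA-HFSCs, 56.1% in LC-HFSCs, 36.4% in non-EA-HFSCs and 21.4% in non-LC-HFSCs. H3K27me3 did the opposite and covered 0% of the gene in both HFSC lists, 99.8% in non-EA-HFSCs, where a single peak of 40765 bp ran through and past it, and 89.4% in non-LC-HFSCs. That peak ranked 58 by width among the 3760 genes with H3K27me3 at a start. The first start of the second group, chr2:38206578-38206877 on the plus strand, lay under H3K4me3 in all 4 lists and under H3K27me3 in non-EA-HFSCs, fell in a gap between H3K27me3 peaks in non-LC-HFSCs, and has 29 CpG dinucleotides.
Lhx2 second start: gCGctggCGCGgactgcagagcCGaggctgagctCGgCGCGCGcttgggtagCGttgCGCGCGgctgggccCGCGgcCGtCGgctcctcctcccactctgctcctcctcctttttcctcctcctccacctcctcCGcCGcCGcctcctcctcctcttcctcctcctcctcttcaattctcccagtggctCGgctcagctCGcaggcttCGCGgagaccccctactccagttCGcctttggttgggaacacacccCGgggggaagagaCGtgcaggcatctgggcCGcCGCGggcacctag

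Tbx1 lies at chr16:18581806-18588113 on the minus strand. A single H3K4me3 peak ran in both HFSC lists from 4407 bp before its start, and it ended 7969 bp after the start in EA-HFSCs and 7531 bp after it in LC-HFSCs. In each non-HFSC list the same stretch was broken into 3 peaks at the starts, of 1862 to 3668 bp in non-EA-HFSCs and 1105 to 2516 bp in non-LC-HFSCs, and non-EA-HFSCs had another peak of 1310 bp further along. H3K27me3 peaks of 5286 and 7938 bp in non-EA-HFSCs, and of 5270 and 4134 bp in non-LC-HFSCs, lay over them. The H3K4me3 peaks at the neighbouring genes Gp1bb and Sept5, which in EA-HFSCs lay between 31378 and 42711 bp before the Tbx1 start, were found in all 4 lists.

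**Figure D4:**
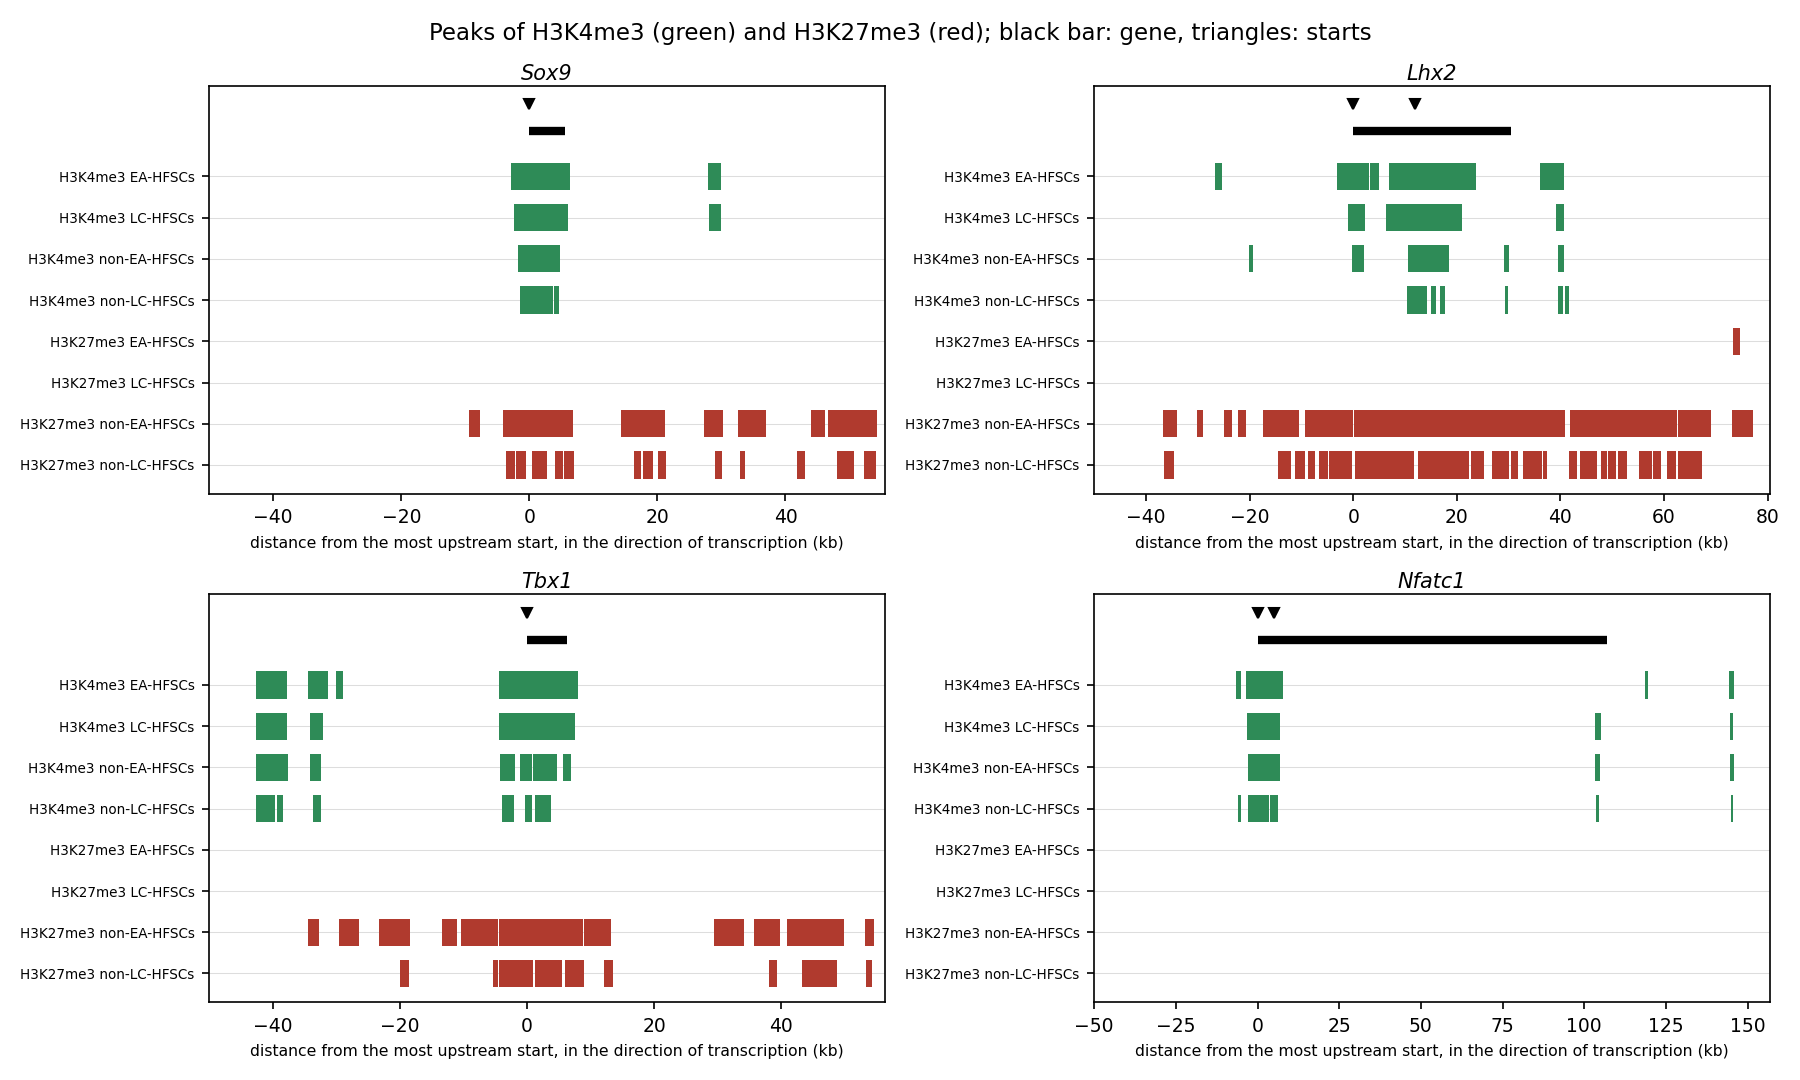
Positions of H3K4me3 peaks (green) and H3K27me3 peaks (red) in the 4 populations over Sox9, Lhx2, Tbx1 and Nfatc1 with 50 kb to either side, as distance in kb from the most upstream start in the direction of transcription. The red tracks of Sox9, Lhx2 and Tbx1 are filled in the non-HFSC rows and empty or nearly so in the HFSC rows, and Nfatc1 has no red in any row.

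Runx1, Trp63 and Gata3 have starts far apart, and the marks picked out some of them. Trp63 lies at chr16:25683849-25892188 on the plus strand. Its upstream start makes the TA forms, which carry an amino-terminal activation domain, and a start 118153 bp downstream makes the ΔN forms, which lack it and prevail in basal epithelium. The downstream start lay under H3K4me3 in all 4 lists, with peaks of 6465 to 6743 bp. The upstream start had no peak of any of the 3 marks within 3000 bp in any of the 12 lists. A smaller H3K4me3 peak within the gene and before the ΔN start, between 94713 and 95902 bp from the upstream start in EA-HFSCs, was present in all 4 lists. The windows at the upstream start, chr16:25683599-25683898, and at the downstream start, chr16:25801752-25802051, both on the plus strand, are shown because 1 is marked and the other is not, though neither is rich in CpG.
Trp63 upstream start: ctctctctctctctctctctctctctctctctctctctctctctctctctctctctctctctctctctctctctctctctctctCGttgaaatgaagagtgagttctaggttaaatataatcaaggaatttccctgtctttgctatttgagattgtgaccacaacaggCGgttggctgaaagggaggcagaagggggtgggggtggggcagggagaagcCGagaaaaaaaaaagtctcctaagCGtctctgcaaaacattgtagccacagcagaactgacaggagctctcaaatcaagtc
Trp63 downstream start: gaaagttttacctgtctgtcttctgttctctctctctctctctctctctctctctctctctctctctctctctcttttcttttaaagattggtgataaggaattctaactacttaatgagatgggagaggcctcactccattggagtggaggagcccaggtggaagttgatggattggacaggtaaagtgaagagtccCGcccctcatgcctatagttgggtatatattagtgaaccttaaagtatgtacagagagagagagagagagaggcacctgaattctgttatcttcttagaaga
The marked downstream window holds 1 CpG and the unmarked upstream window 4. The ratio of observed to expected CpG, which is the count set against that from the C and G content of the window, was 0.0712 downstream, lower than at all but 7.74% of 22362 gene starts, and 0.237 upstream. All 4 populations thus carried H3K4me3 over a start nearly without CpG.

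Runx1 lies at chr16:92601712-92826311 on the minus strand, with an upstream start and a second group of starts 128738 bp downstream, its distal and proximal promoters. H3K4me3 covered the second group in all 4 lists, with peaks of 7015 to 9524 bp, and no H3K4me3 peak lay within 3000 bp of the upstream start in any list. H3K27me3 lay at the second group in both non-HFSC lists, with widest peaks of 4613 bp in non-EA-HFSCs and 2643 bp in non-LC-HFSCs, and in neither HFSC list. In non-EA-HFSCs a further H3K27me3 peak of 3681 bp began 2340 bp inside the gene from the upstream start. In EA-HFSCs, 5 H3K27me3 peaks lay elsewhere in the gene, between 13809 and 115562 bp from the upstream start. The windows at the upstream start, chr16:92826262-92826561, and at the second group, chr16:92697524-92697823, both on the minus strand, differ widely in CpG. The second lay under H3K4me3 in all 4 lists, and the H3K27me3 peaks of the non-HFSC lists lay to either side of it.
Runx1 upstream start: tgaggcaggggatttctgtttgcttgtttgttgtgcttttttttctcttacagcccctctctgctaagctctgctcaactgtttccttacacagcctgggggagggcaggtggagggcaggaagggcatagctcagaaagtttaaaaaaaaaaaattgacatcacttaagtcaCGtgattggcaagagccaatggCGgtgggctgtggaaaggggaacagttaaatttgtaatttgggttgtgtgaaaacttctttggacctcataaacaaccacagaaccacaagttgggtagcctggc
Runx1 second start: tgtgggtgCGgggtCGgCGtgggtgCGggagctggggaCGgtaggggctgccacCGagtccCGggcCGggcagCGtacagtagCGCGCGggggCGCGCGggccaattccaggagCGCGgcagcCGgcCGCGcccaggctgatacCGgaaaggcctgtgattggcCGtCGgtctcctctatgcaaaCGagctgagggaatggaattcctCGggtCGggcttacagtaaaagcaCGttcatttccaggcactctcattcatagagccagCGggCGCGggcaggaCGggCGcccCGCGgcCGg
The upstream window holds 2 CpG dinucleotides and has an observed to expected ratio of 0.131. The window of the second group holds 35, and its ratio of 1.01 exceeds that of 93.1% of gene starts.

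Gata3 lies at chr2:9778705-9811661 on the minus strand, and its transcripts start in 3 groups, the second of them 11434 bp and the third 14635 bp from the first. It was the only gene of the 10 with H3K27me3 at a start in the HFSC lists. The mark lay at the first group in all 4 lists and at no other group in any list. In EA-HFSCs its peak was 12207 bp wide and ended 3432 bp inside the gene, and it ended 794 bp inside in LC-HFSCs, 1031 bp in non-EA-HFSCs and 1224 bp in non-LC-HFSCs. The wide H3K4me3 peak began further in, 4873 bp from the first start in EA-HFSCs and 5084, 4876 and 4761 bp in the other lists, and covered both later groups. The wide domains of the 2 marks therefore lay side by side and did not touch. The 2 marks met in a second H3K4me3 peak at the first group. It was 1939 bp wide in EA-HFSCs with all 1939 bp under H3K27me3, and 1946 bp in LC-HFSCs with 1224 bp under it. In non-EA-HFSCs it was 2258 bp wide with 1491 bp under H3K27me3, and in non-LC-HFSCs 2221 bp with 1784 bp. Starts of the gene 9230102O04Rik lie in reach of the peaks at the first group, so the marks there cannot be given to Gata3 alone. A further H3K4me3 peak upstream of Gata3 lay wholly within an H3K27me3 peak in 3 lists and was absent from LC-HFSCs. It was 1990 bp wide in EA-HFSCs, 1790 bp in non-EA-HFSCs and 1955 bp in non-LC-HFSCs. The windows at the first start, chr2:9811612-9811911, and at the second group, chr2:9800178-9800477, both on the minus strand, show the 2 kinds of start in 1 gene.
Gata3 first start: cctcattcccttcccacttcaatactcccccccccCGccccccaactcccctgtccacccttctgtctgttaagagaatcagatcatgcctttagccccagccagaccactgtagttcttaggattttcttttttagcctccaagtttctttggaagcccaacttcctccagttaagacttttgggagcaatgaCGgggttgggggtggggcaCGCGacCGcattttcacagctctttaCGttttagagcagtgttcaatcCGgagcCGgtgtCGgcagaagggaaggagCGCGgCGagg
Gata3 second start: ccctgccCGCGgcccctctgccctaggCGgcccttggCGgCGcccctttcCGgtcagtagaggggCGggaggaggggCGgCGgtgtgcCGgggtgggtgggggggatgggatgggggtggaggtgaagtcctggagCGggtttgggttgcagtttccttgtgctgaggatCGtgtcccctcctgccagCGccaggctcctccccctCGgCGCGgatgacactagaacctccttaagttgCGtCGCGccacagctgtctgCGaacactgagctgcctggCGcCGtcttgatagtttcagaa
The first window holds 12 CpG dinucleotides with an observed to expected ratio of 0.553, and the second 22 with a ratio of 0.658.

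**Figure D5:**
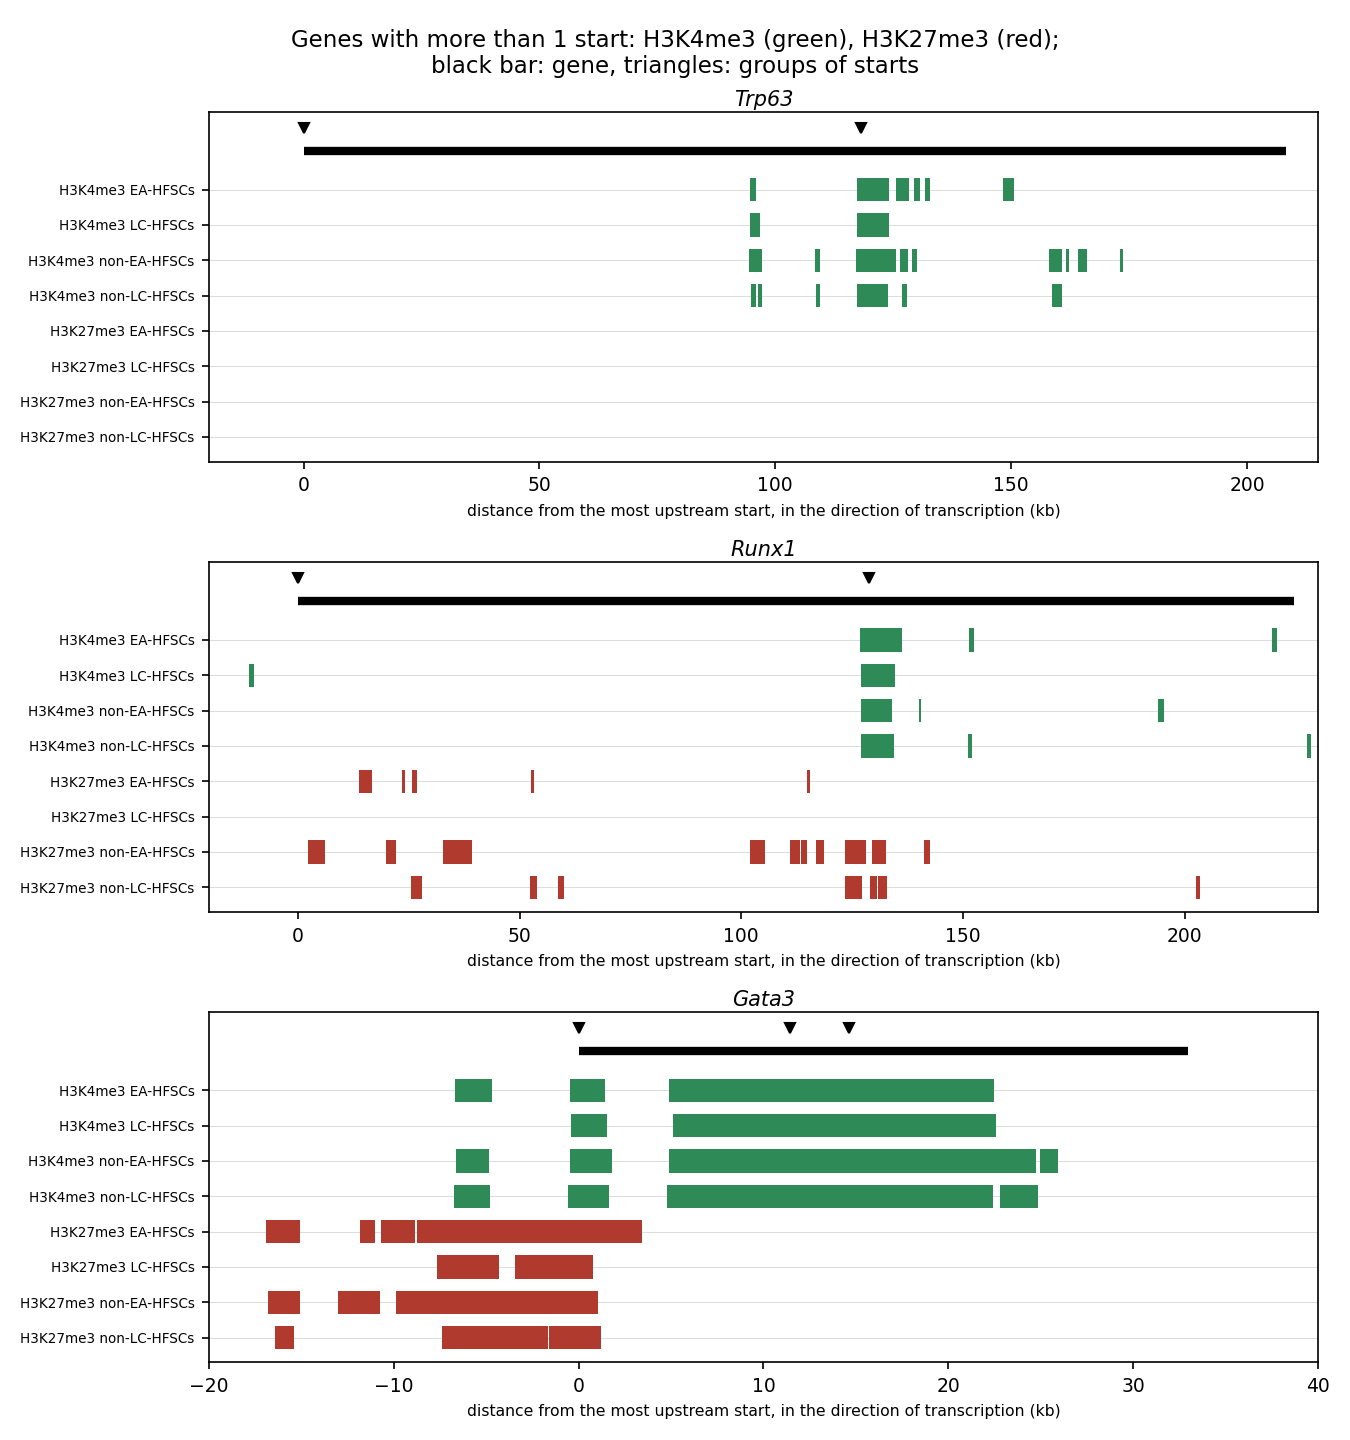
Positions of H3K4me3 peaks (green) and H3K27me3 peaks (red) in the 4 populations over Trp63, Runx1 and Gata3, in kb from the most upstream start, with triangles at the groups of starts. The upstream starts of Trp63 and Runx1 have no green peak on them, and at Gata3 the red peaks end before the wide green peak begins.

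The other factors had a simpler picture. The 2 groups of starts of Nfatc1 lie 4898 bp apart, and in EA-HFSCs, LC-HFSCs and non-EA-HFSCs 1 H3K4me3 peak covered both, while in non-LC-HFSCs they lay under separate peaks of 6417 and 2268 bp. A short H3K4me3 peak within Nfatc1, between 103202 and 105168 bp from its first start in LC-HFSCs, was present in every list except that of EA-HFSCs. Tcf7l1 (chr6:72576372-72739248, minus strand) has 1 group of protein-coding starts, with H3K4me3 in all 4 lists, and an inner start of a non-coding transcript without any mark. In non-EA-HFSCs H3K27me3 covered 19.2% of the Tcf7l1 gene and came no nearer than 3 kb to its starts, and in non-LC-HFSCs 2 peaks, of 2134 and 2698 bp, lay on either side of the first start.

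Tcf7l2 (chr19:55816300-56008144, plus strand) was marked in all 4 lists at its first group of starts and, with peaks of only 1271 to 1367 bp, at an inner group 151542 bp downstream. The width of its main peak in EA-HFSCs came from the 3′ side: the peak ended 11341 bp after the start in EA-HFSCs and 4145 bp after it in LC-HFSCs, 3525 bp in non-EA-HFSCs and 3487 bp in non-LC-HFSCs. Vdr (chr15:97684856-97741061, minus strand) behaved alike. Its main peak began 685 to 1232 bp inside the gene in all 4 lists and ended 13108 bp from the most upstream start in EA-HFSCs and 7504, 7514 and 7264 bp from it in the other lists. The 5′ edge of the Tcf7l2 peak also moved little, from 1018 to 1310 bp before the start.

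H3K9me3 was spread over many starts in EA-HFSCs and over few elsewhere, and the 10 genes went with the lists. It lay at a start of 5 of the 10 genes in EA-HFSCs, Tcf7l2, Runx1, Gata3, Trp63 and Vdr, where 47.9% of all genes had it. It lay at 0 in LC-HFSCs (0.505% of all genes) and at 0 in non-EA-HFSCs (4.14%). In non-LC-HFSCs it lay at 4, Sox9, Lhx2, Gata3 and Trp63, against 14.1%. The count of non-LC-HFSCs fell to 0 when peaks under a score of 100 were left out. The widest peak at a start measured 1256 to 3895 bp in EA-HFSCs and 586 to 882 bp in non-LC-HFSCs. Medians over all genes with the mark at a start were 1300 and 616 bp. Gata3 (3895 bp) and Trp63 (3515 bp) exceeded the 90th percentile of EA-HFSCs, which was 2295 bp. In non-LC-HFSCs 0 of the 4 genes exceeded it, at 976 bp. Of the 29 H3K9me3 peaks of EA-HFSCs in the 10 regions, 0 met a peak of LC-HFSCs and 2 met a peak of non-EA-HFSCs, where the shares over the whole EA-HFSC list were 1.79% and 8.6%. The Gata3 region held 11 of the 29. The EA-HFSC list holds 42277 H3K9me3 peaks, and at each of these 5 genes H3K9me3 lay at a group of starts that also carried H3K4me3. All 10 genes carried H3K4me3 at a start in that list, so this does not set the 5 apart. The share over all genes was not counted.

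Away from the starts, H3K4me3 peaks of EA-HFSCs were often missing at late catagen. Of the 14 such peaks at starts of the 10 genes, 13 were overlapped by a peak of LC-HFSCs, against 2 of 19 in the gene bodies and 10 of 21 in the flanks. Split by whether a protein-coding start of any gene lay within 3 kb, 18 of 19 at such starts and 7 of the 35 others (20%) were overlapped, against 83.5% and 34.9% genome-wide. Several flank peaks that were kept were the starts of neighbours, Tgoln1, Elmod3 and Retsat beside Tcf7l1, Gp1bb and Sept5 beside Tbx1, and Hdac7 beside Vdr. Of the 35 EA-HFSC peaks of the regions that lay at no protein-coding start, 6 or 17.1% were found in all 4 lists, against 28.7% of all such peaks. They lay 1 each beside or within Lhx2, Nfatc1, Tcf7l1, Runx1, Trp63 and Vdr, and that of Runx1 was beyond the 3′ end of the gene, 259403 bp from its upstream start.

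Many relatives of the 10 factors carried H3K27me3 in EA-HFSCs as well as in the non-HFSC lists. The 38 genes read were of the same families or, for Vdr, its partners and relatives. H3K27me3 lay at a start of 27 in EA-HFSCs, 14 in LC-HFSCs, 30 in non-EA-HFSCs and 29 in non-LC-HFSCs. The shares of all genes were 14%, 3.73%, 16.8% and 12.9%. H3K4me3 lay at 27, 15, 26 and 22 of the 38, against 62.4%, 55.9%, 61.7% and 58.8% of all genes. Both marks lay at 20, 3, 21 and 16, against 8.89%, 1.3%, 10.8% and 6.6%. All 7 other LIM-homeodomain genes read (Lhx1, Lhx3, Lhx4, Lhx5, Lhx6, Lhx8 and Lhx9) carried H3K27me3 in EA-HFSCs and in both non-HFSC lists, where Lhx2 carried it in the non-HFSC lists alone. Sox8 and Sox10, the nearest relatives of Sox9, had it in EA-HFSCs and in both non-HFSC lists, and so did Runx2 and Runx3. Of 10 T-box genes other than Tbx1, 8 had it in EA-HFSCs and 7 also at late catagen in LC-HFSCs. Among the 5 other Gata genes it was found at 4 in EA-HFSCs, and Gata3 itself had it too. Tcf7, of the family of Tcf7l1 and Tcf7l2, had no H3K27me3 in any list, whereas Lef1 had it in EA-HFSCs and in both non-HFSC lists. Nfatc4 and Nr1i3 showed the pattern of Sox9, Lhx2, Runx1 and Tbx1, with H3K27me3 in both non-HFSC lists and in neither HFSC list. Rxrb had it in non-EA-HFSCs alone.

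A list of 25 partners and fellow genes of the follicle, which shares Lef1 and Rxra with the family list, carried H3K4me3 at 25 genes in each HFSC list and at 24 in each non-HFSC list. H3K27me3 lay at 3 of them in EA-HFSCs, 0 in LC-HFSCs, 9 in non-EA-HFSCs and 10 in non-LC-HFSCs. The shares of all genes were 14%, 3.73%, 16.8% and 12.9%. H3K9me3 lay at 15, 0, 0 and 4 in the same order, against 47.9%, 0.505%, 4.14% and 14.1% of all genes. Nfib, Foxc1, Msx2, Dlx3 and Prdm1, all transcription factors of follicle or epidermis, carried H3K27me3 in both non-HFSC lists and in neither HFSC list, as Sox9, Lhx2, Runx1 and Tbx1 did. Other factors of that group went another way. Grhl3 carried it in EA-HFSCs alone, Hoxc13 in EA-HFSCs and non-LC-HFSCs, and Lef1 in EA-HFSCs and both non-HFSC lists. Id2, Foxn1, Ovol1 and Klf4 had it in no list. Of the co-repressors that bind Tcf7l1, Tle1 carried it in both non-HFSC lists and Tle2, Tle3 and Tle4 in none. The partner of Runx1, Cbfb, and that of Vdr, Rxra, had none in any list.

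Among the 22362 gene starts with a window of 300 bases, the median GC content was 55% and the median ratio of observed to expected CpG 0.534. Of the 20 groups of starts of the 10 factors, 8 had H3K27me3 within 3 kb in at least 1 list, with ratios from 0.131 (Runx1, upstream) to 1.01 (Runx1, second group), a median of 0.792 and 7 above the median of all gene starts. The 12 groups without it in any list ran from 0.0712 (Trp63, downstream) to 1.13 (Nfatc1, second group), with a median of 0.344 and 4 above that of all gene starts, the 2 of Nfatc1, the first of Tcf7l2 and the second of Gata3. The ranges overlapped, and groups of the same gene are not independent. Motif letters were searched on both strands of the 20 windows of the 10 genes. TGTGGT, the core of RUNX sites, is present in 15.3% of all gene starts and was found in 5 windows: at Tbx1, at the upstream starts of Runx1 and Trp63, at the third group of Gata3 and at the inner group of Tcf7l2. AGATAA, the letters of sites for GATA factors, found in 10.3% of starts, was in 1 window, at the marked start of Trp63. ATTGTT, a SOX motif found in 10% of starts, was in 3, at the first starts of Tcf7l2 and Vdr and at the third of Vdr. TATAAA, a core promoter box found in 13.4%, and CTTTGA, a TCF and LEF motif, found in 15.1%, were in 0 of the 20.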

How the data were processed

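The authors trimmed single-end reads, aligned them to mm9 with Bowtie2, pooled reads of separate experiments and ran MACS with each population's own IgG reads as control. The submitters' processing notes also name Trimmomatic 0.22, HOMER and Cuffdiff. The deposited lists give each peak's position and a score, MACS's p-value on a negative log10 scale multiplied by 10. Their minima correspond to p-values of 1e-05 for H3K4me3 and 0.0001 for the other marks. The 4 IgG samples have no list and were not used. Read depth is not known from the lists. According to the paper, LC-HFSCs were sequenced more deeply than EA-HFSCs, and it does not put their shorter lists down to read number. It describes H3K4me3 peak calling as near saturation, where further reads add few peaks, but H3K27me3 and H3K9me3 as short of it. Reads were pooled for that reason, and whether the pooled lists reached saturation is not stated. No value has an error other than counting error.

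Starts came from GENCODE vM1 on NCBIM37, the assembly of mm9, and sequences from its genome. No peak passed the end of a chromosome, and 733 peaks on unplaced sequence were left out. Transcript starts were grouped where neighbours were close together. A peak sharing at least 1 bp with a start and 3000 bp to either side was counted, and covered length was summed over each gene with 50 kb flanks. Background shares are over all 22367 protein-coding genes. Python 3.11.15, numpy 2.4.6 and matplotlib 3.10.9 were used. On simulated peaks the step recovered 2000 of 2000 genes with a placed peak and equalled bedtools 2.31.1. The 10 genes, the family, partner and marker lists and the rules were chosen with earlier results of these data known. The genes named are the 10 members, by rule, with list genes counted in full. Alternatives were the score, the window, the annotated gene start alone, equal numbers of top-scoring peaks, merged peaks and 10 kb flanks. A single H3K4me3 peak away from the starts is not reported here.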

Additional observations from a re-analysis of the deposited data

Results flagged for a closer look

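In 3 measures the change from early anagen to late catagen ran in opposite directions in HFSCs and in non-HFSCs. There is 1 list for each population and mark, so the difference was not tested in any of them. The number of the 10 genes with H3K9me3 at a start was 5 in EA-HFSCs and fell to 0 in LC-HFSCs, but was 0 in non-EA-HFSCs and 4 in non-LC-HFSCs. The shares of all genes ran the same ways, from 47.9% to 0.505% in HFSCs and from 4.14% to 14.1% in non-HFSCs. The length of the 10 regions under H3K9me3 was 33.99 kb in EA-HFSCs and 0.00 kb in LC-HFSCs, against 16.55 kb in non-EA-HFSCs and 21.83 kb in non-LC-HFSCs. The Gata3 region alone held 17.5 kb in EA-HFSCs, 0 kb in LC-HFSCs and non-EA-HFSCs and 1.99 kb in non-LC-HFSCs. At a score of at least 100 the non-HFSC lengths turned, to 5.56 and 1.35 kb, and the length of the whole non-HFSC lists also fell, from 24 to 11.7 Mb. The widest H3K4me3 peak at a start of Runx1 was 9524 bp in EA-HFSCs and narrower, 7740 bp, in LC-HFSCs, against 7015 bp in non-EA-HFSCs and 7634 bp in non-LC-HFSCs. From non-EA-HFSCs to non-LC-HFSCs the width fell at 9 of the 10 genes and at 79.9% of all genes with a peak in both lists.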

How the results depend on the processing

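The H3K4me3 count was 10 of 10 in every list under every alternative but the annotated gene start alone, where it was 8 in 3 lists and 7 in non-LC-HFSCs, with Trp63 and Runx1 absent from all 4 and Lhx2 from non-LC-HFSCs. The counts of H3K27me3 and of both marks in non-EA-HFSCs fell to 3 with equal numbers of top-scoring peaks, and those in LC-HFSCs fell to 0 at a score of at least 100. Only the 5000 bp window and merged peaks could have added H3K27me3 at a start. Neither put it at a start of Sox9, Lhx2, Runx1 or Tbx1 in an HFSC list. No alternative lowered the score limit of a list. The H3K9me3 count fell in EA-HFSCs to 3 with the gene start alone and to 2 with equal numbers, and in non-LC-HFSCs to 1 with the gene start alone and to 0 with equal numbers or a score of at least 100. At that score H3K27me3 covered 16.97 kb in EA-HFSCs, 0.00 kb in LC-HFSCs and 165.85 kb in non-EA-HFSCs, and with equal numbers 12.21 kb in EA-HFSCs, 86.44 kb in non-EA-HFSCs and 72.98 kb in non-LC-HFSCs. Flanks of 10 kb left 160.93 kb in non-EA-HFSCs and 106.40 kb in non-LC-HFSCs. For H3K9me3 the length was 11.91 kb in non-LC-HFSCs at a score of at least 50, and 13.97 kb in EA-HFSCs, 5.56 kb in non-EA-HFSCs and 1.35 kb in non-LC-HFSCs at 100. In the same order it was 9.44, 0.00 and 3.65 kb with equal numbers, and 9.77 and 13.31 kb in the non-HFSC lists with 10 kb flanks. Windows of 1000 and 5000 bp and merged peaks moved no count by over 1.5 times. Of 40 H3K4me3 widths, 16 moved by more than that with the gene start alone, all at Lhx2, Runx1, Gata3 and Trp63, and 4 with merged peaks, of Lhx2, Tbx1 and Trp63 in non-HFSC lists. Depth and background of the libraries, which the lists do not give, limit every absence of a peak. Any lack of saturation in the H3K27me3 and H3K9me3 lists limits the absences of those marks further.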
